A study of Mus musculus with 16 samples.

Results

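Among the genes read in monocytes of the neonatal mouse spleen, 150 shared one library pattern that crossed the 2 sorted fractions. They were chosen by their RNA levels in single libraries, from a count table of 25562 genes in 6 RNA libraries. A gene entered if its mean over the libraries was at least 10 CPM (CPM being a gene's count scaled to the library's total count) and its highest value in Nrp1 low replicate 1, Nrp1 low replicate 3 and Nrp1 high replicate 2 lay below its lowest value in Nrp1 low replicate 2, Nrp1 high replicate 1 and Nrp1 high replicate 3. The first 3 libraries are called the lower set here and the other 3 the upper set, and values are given in these orders throughout. Of 8659 genes at or above 10 CPM, 1979 met this condition, and the 150 with the most negative log2 ratio of the set means (each plus 1 CPM) are the members. The sets are not groups of the study. They were drawn from the measured values, so the difference between them is a description of the members and carries no test.

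Monocytes were sorted by surface Nrp1, the neuropilin that binds secreted semaphorins together with plexins, into a high and a low fraction from the spleens of wild type C57BL/6J mice aged 7 days. RNA was read from 3 libraries of each fraction, 80000 cells a library, and open chromatin by ATAC-seq (a transposase cuts accessible DNA) from 5 libraries of each fraction, 50000 cells a library. The ATAC protocol names the strain C57BL/6. The samples carry the cell type label myeloid-derived suppressor cell, no treatment is given, and the protocol speaks of pooled RNA without saying how many animals a library holds. Nothing in the labels says that libraries came from separate animals, so p-values cover the spread from library to library alone, and that spread may be technical.

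A messenger RNA library made by template switching copies polyadenylated transcripts from their 3′ end towards the 5′ cap, and the share of counts that each gene takes depends on all the others. Mitochondria hold their own small genome, which codes for subunits of the respiratory chain, for ribosomal RNAs and for transfer RNAs. The members hold 7 genes of that genome beside nuclear genes of many roles, among them transcription factors, chromatin enzymes, RNA-binding proteins, kinases, membrane proteins and ubiquitin ligases. In monocytes such genes run alongside a lineage programme in which Klf4, a zinc finger factor, is needed for monocyte differentiation.

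Total counts ran from 23395363 to 35127433, and the deepest library, Nrp1 low replicate 1, was the one in which members were lowest. Total counts overlapped between the sets, with 35127433, 26962442 and 31428419 in the lower set against 23395363, 28866801 and 28440098 in the upper set. Genes with a count numbered 18725, 19608 and 19376 against 19234, 20231 and 19782. The 100 highest genes of each library took 31.8, 32.0 and 25.3% of its counts against 27.4, 24.7 and 23.9%. The part of depth or of these library values in the members' pattern was not tested. Monocyte markers were present in every library: Ly6c2 stood between 1666 and 2489 CPM, Lyz2 between 22706 and 38780 CPM and Csf1r between 338 and 537 CPM. Lyz2 was higher in every lower-set library (38780, 35530 and 31811 against 27940, 22706 and 23941 CPM). Itgam was lower in each of them (75.3, 169 and 166 against 289, 211 and 271 CPM). Ccr2 (330, 351 and 703 against 643, 905 and 992 CPM), Ly6c2, Csf1r and Cx3cr1 overlapped between the sets. The summed level of 22 neutrophil and granulocyte genes split by Nrp1 fraction (55099 to 77271 CPM in the low libraries, 10693 to 13145 CPM in the high ones). Inside each fraction this sum was higher in the lower-set libraries. It was 72937 and 77271 against 55099 CPM in Nrp1 low, and 13145 against 11358 and 10693 CPM in Nrp1 high. Of 14 cell type lists, 1 held a member (Spn, of the non-classical monocyte list). The summed level was lower in all lower-set libraries for the dendritic cell list (446, 540 and 645 against 703, 696 and 756 CPM) and higher there for the classical monocyte, erythroid, B cell and T cell lists. The part of other cells in the members' pattern was not tested. In bulk libraries, fewer cells of a type and less RNA per cell cannot be told apart.

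The members formed a gradient rather than 2 plateaus. Their median level was 5.22, 17.6 and 24.7 CPM in the lower set and 34.9, 51.2 and 51.5 CPM in the upper set. The rule fixes which set is lower, but not the order inside a set. Nrp1 low replicate 1 held the lowest value in 148 of 150 members, against 39.4% of all genes at or above 10 CPM and 88.0% of the 1979 genes on the lower side. Nrp1 low replicate 2 was the lowest of the upper set in 135 members (90.0%), against 45.4% of all genes at that level and 69.2% of the 1979. The highest value lay in Nrp1 high replicate 1 for 99 members (66.0%, against 21.7 and 43.1%). It lay in Nrp1 high replicate 3 for 48 (32.0%, against 21.9 and 44.1%).

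The step between the sets was not the largest one. Between Nrp1 high replicate 2 and Nrp1 low replicate 2, the neighbours across the border, the median log2 difference was 0.50 (both levels plus 1 CPM), and in 24 members they differed by less than 1.2-fold. Between Nrp1 low replicates 1 and 3, both inside the lower set, it was 1.58. Inside the upper set, the steps from Nrp1 low replicate 2 to Nrp1 high replicates 3 and 1 were 0.63 and 0.73, also larger than the border step. Smaller than the border step were 0.35 from Nrp1 low replicate 3 to Nrp1 high replicate 2 and 0.13 from Nrp1 high replicate 3 to Nrp1 high replicate 1. The median log2 ratio of the lower to the upper set over the members was -1.50, and it was -1.11 when Nrp1 low replicate 1 was left out. Over all genes at or above 10 CPM the median was -0.09.

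**Figure D1:**
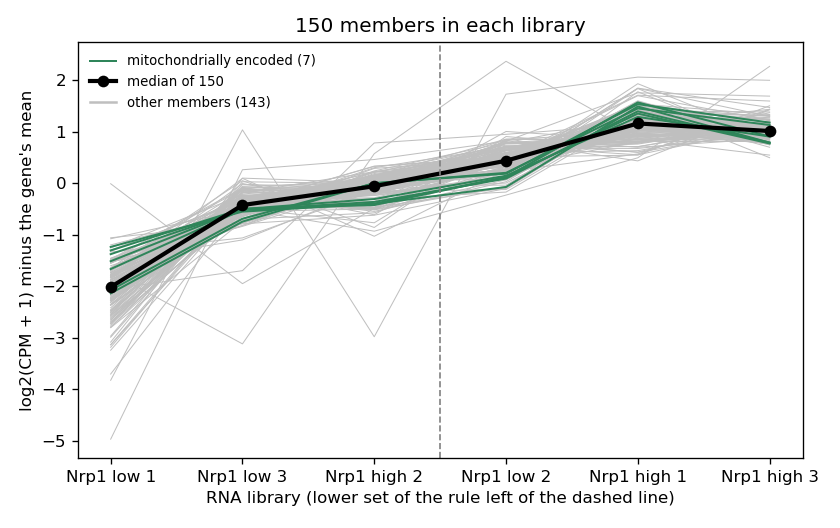
Lines give log2(CPM + 1) minus the gene's own mean (vertical axis) for each of the 150 members in the 6 RNA libraries (horizontal axis), with the 7 mitochondrially encoded members in green and the median in black. The rise from Nrp1 low replicate 1 to the next library is larger than the step across the dashed border between the sets.

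Mitochondrially encoded transcripts were among the members, and their total share was also lower in each lower-set library than in each upper-set library. The table holds 37 such genes, of which 17 reached 10 CPM, 14 lay on the lower side and 7 are members. Together they made up 0.784, 1.11 and 1.29% of the counts of the lower-set libraries and 1.57, 3.01 and 2.37% of those of the upper set. Sorted by this share the libraries run low 1, low 3, high 2, low 2, high 3, high 1, and 76 members followed that order exactly, against 6.04% of all genes at or above 10 CPM and 26.4% of the 1979 on the lower side. The 7 mitochondrially encoded members count in this share themselves, so their own order is partly built into it. Both the mitochondrial share and the members' levels are shares of the same totals, and the part of the one in the other was not tested.

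The 16S and 12S ribosomal RNAs, the core of the mitochondrial ribosome, had log2 ratios of -1.71 and -1.78. mt-Rnr2 (16S rRNA, GRCm38 chromosome MT, 1094 to 2675) stood at 605, 1583 and 2547 CPM in the lower set and at 2934, 6975 and 5582 CPM in the upper set. mt-Rnr1 (12S rRNA, MT, 70 to 1024) stood at 125, 328 and 552 against 626, 1595 and 1245 CPM. Both Nrp1 high libraries of the upper set lay above every other library in these rRNAs, while the border libraries differed by 1.15-fold and 1.13-fold.

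Subunits of respiratory complex I followed. mt-Nd6 stood at 100, 224 and 243 against 347, 950 and 601 CPM, and mt-Nd4 at 312, 567 and 631 against 864, 2135 and 1402 CPM. mt-Nd2 stood at 98.2, 158 and 176 against 221, 653 and 402 CPM. In all 3 the highest library was Nrp1 high replicate 1. The transfer RNA genes mt-Ts1 and mt-Te complete the group with log2 ratios of -1.54 and -1.52. mt-Nd6, mt-Ts1 and mt-Te are coded on the strand opposite to most mitochondrial genes, and whether the counting used strand is not stated, so reads of the 2 strands cannot be told apart in them.

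Mitochondrial genes did not move as one. mt-Co1, of complex IV, had a log2 ratio of -1.09 and lay on the lower side without ranking among the 150. mt-Co2 had -0.64 and mt-Cytb, of complex III, -0.62. mt-Atp8, of the ATP synthase, stood at 283, 209 and 288 CPM in the lower set and at 261, 206 and 242 CPM in the upper set, a ratio of 0.14. The ratios of the 17 genes thus ran from -1.78 to 0.14, with a median of -1.28.

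Gene models without a common name held large parts of the members' counts. CT010467.1 took 0.127, 0.556 and 0.834% of all counts in the lower set and 0.905, 1.60 and 1.63% in the upper set, the largest share of any member. Gm29216 stood at 498, 968 and 921 against 1326, 2822 and 2078 CPM. In total 22 members are predicted models, pseudogenes or clone names (14.7%), against 5.05% of all genes at or above 10 CPM. The 2 most negative ratios belong to Gm49388 (0, 28.0 and 0.795 against 45.8, 57.9 and 55.4 CPM) and Gm45837 (3.16, 0.593 and 19.5 against 70.1, 25.4 and 26.5 CPM), and neither followed the gradient of the other members. Gm49388 and Zfp91 were listed at 0 counts in Nrp1 low replicate 1, and no other member was listed at 0 in a library.

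**Figure D2:**
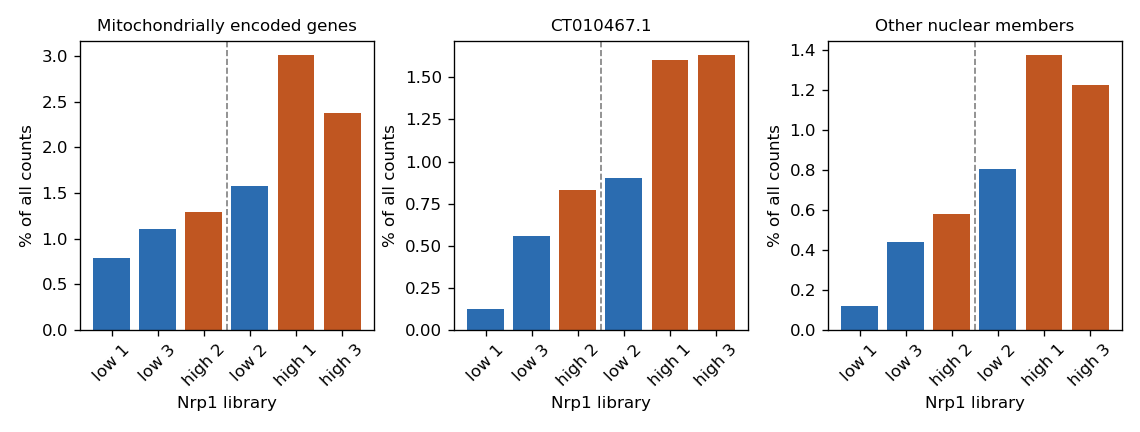
Bars give the share of all counts (vertical axes, in %) taken in each RNA library by the mitochondrially encoded genes, by CT010467.1 and by the 141 nuclear members other than CT010467.1 and Gm29216, with Nrp1 low in blue and Nrp1 high in orange. In each panel Nrp1 low replicate 1 is lowest (0.784, 0.127 and 0.119%) and the 2 high libraries right of the dashed line are highest.

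Transcription factors and chromatin regulators made the largest role group, 28 of 150, with a median log2 ratio of -1.52. The role groups were assigned after the values were seen and are descriptions. Klf4, which the study names as a subject, is one of the 28. Klf4 (GRCm38 chromosome 4, 55527137 to 55532475, minus strand) stood at 15.3, 75.5 and 119 CPM in the lower set and at 126, 253 and 241 CPM in the upper set. The level in Nrp1 low replicate 2 exceeded that in Nrp1 high replicate 2 by 1.06-fold, so the 2 fractions overlapped. Of 10 Kruppel-like factor genes at or above 10 CPM, 3 lay on the lower side and 1 on the upper side, near the shares of 22.9% and 11.2% over all genes at that level, and Klf4 was the only member.

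General transcription machinery was represented by its central enzyme. Polr2a, the catalytic subunit of RNA polymerase II (chromosome 11, 69733997 to 69758633, minus strand), stood at 10.1, 58.1 and 74.9 against 111, 179 and 143 CPM. Sp1, a zinc finger factor that binds GC boxes (chromosome 15, 102406316 to 102436404, plus strand), stood at 8.08, 28.1 and 46.3 against 73.3, 74.4 and 99.3 CPM. In both genes Nrp1 low replicate 1 lay more than 3-fold below the next library. Maz, another zinc finger factor of GC-rich promoters, had a log2 ratio of -1.48, Pou2f2, an octamer-binding factor, -1.41, and Med13, a subunit of the Mediator kinase module, -1.42. Zfp91, a zinc finger ubiquitin ligase, stood at 0, 36.4 and 41.9 against 53.9, 104 and 99.6 CPM, and Zfp385a, an RNA-binding zinc finger protein, had a log2 ratio of -1.46.

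The 250 bases before the RefSeq start of Klf4, Sp1 and Polr2a are shown because an open region of the ATAC table lies over each, and that of Mpeg1, a macrophage gene of the same pattern, as a contrast of base composition. Capitals mark GGGCGG, the core of the GC box, on either strand (CCGCCC when read from the other strand). Sequences are from RefSeq on GRCm38.p6, 5′ to 3′ in the direction of the gene.
Klf4 (chr4:55532476-55532725, minus): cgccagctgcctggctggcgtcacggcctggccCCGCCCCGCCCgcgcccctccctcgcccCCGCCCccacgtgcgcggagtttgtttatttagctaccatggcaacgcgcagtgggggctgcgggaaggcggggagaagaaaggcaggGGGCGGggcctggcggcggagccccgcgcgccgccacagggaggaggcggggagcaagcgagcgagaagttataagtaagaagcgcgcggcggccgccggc
Sp1 (chr15:102406066-102406315, plus): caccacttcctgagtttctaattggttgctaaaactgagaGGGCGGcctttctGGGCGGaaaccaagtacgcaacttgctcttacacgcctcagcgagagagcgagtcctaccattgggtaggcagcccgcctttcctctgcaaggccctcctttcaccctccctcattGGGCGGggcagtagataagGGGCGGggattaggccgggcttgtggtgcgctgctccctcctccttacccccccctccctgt
Polr2a (chr11:69758634-69758883, minus): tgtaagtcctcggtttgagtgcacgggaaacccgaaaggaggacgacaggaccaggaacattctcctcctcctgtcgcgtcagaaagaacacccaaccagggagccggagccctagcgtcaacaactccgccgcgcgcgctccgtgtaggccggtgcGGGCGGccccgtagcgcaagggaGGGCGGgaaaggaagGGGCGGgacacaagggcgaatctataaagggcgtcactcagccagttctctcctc
Mpeg1 (chr19:12460520-12460769, plus): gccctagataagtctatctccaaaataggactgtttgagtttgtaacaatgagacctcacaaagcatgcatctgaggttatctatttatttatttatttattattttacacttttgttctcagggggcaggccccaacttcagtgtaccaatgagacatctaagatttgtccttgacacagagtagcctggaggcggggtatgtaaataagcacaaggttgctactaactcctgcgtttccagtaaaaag

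The window of Klf4 holds 1 GGGCGG and 3 CCGCCC, that of Sp1 4 GGGCGG, that of Polr2a 3 GGGCGG and that of Mpeg1 neither. GC content was 74.0, 59.6, 62.8 and 40.0%. Of the 122 nuclear protein-coding members 109 had a promoter in the RefSeq table, and 69.7% of these windows held GGGCGG on either strand, against 60.7% of 6810 windows of genes at or above 10 CPM and 32.9% of all 27025. GGGAGGG was in 42.2% of members' windows against 22.7 and 19.1%, and CCACCC in 38.5% against 31.5 and 27.7%. CCAAT was in 28.4% against 37.4 and 34.5%, TATAAA in 2.75% against 5.99 and 13%, CCGGAAG in 11.9% against 16.8 and 7.05%, TGACGTCA in 3.67% against 2.80 and 1.62% and TGANTCA in 0.917% against 4.13 and 6.87%. All motifs were searched on both strands, the G-rich and C-rich ones among them can overlap in shared runs of G or C, and a match is a run of letters, not a bound site. The members' windows were also richer in G and C as a whole (median 64.8% against 60.0%), with 21 CG pairs against 17.

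Chromatin enzymes and remodellers showed the same gradient. Smarcc2, a core subunit of the BAF remodelling complex, stood at 7.09, 26.7 and 35.2 against 54.1, 109 and 108 CPM, the steepest of the group with a log2 ratio of -1.93. Kdm1b, a histone H3 lysine demethylase, stood at 13.8, 18.8 and 39.2 against 47.0, 114 and 89.5 CPM. Cic, a transcriptional repressor of the HMG box class, stood at 4.50, 38.4 and 50.6 against 66.3, 139 and 121 CPM. Each was highest in Nrp1 high replicate 1 and lowest in Nrp1 low replicate 1.

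Writers and remodellers of histone marks added smaller values. Kmt2b, a histone H3 lysine methyltransferase, stood at 1.65, 23 and 21.6 against 31.8, 62.2 and 42.3 CPM, and its ratio shrank from -1.50 to -0.99 without Nrp1 low replicate 1. Ino80, the ATPase of a remodelling complex, had a log2 ratio of -1.38, Suz12, of Polycomb complex PRC2, -1.45, and Dot1l, another histone methyltransferase, -1.52. In a wider list of 54 chromatin regulators at or above 10 CPM, 37 lay on the lower side and 0 on the upper side, and 3 (Kmt2b, Med13 and Ino80) are members. The background over all genes was 22.9% on the lower side and 11.2% on the upper side. These shares are what the rule selects from and are given for reading only. At TMM-scaled library sizes (a scaling by the bulk of genes, run after the data were seen) 36 of the 54 lay on the lower side, against 1607 of all 8659 genes, with 1785 on the upper side.

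RNA-binding and RNA-processing proteins numbered 15, with a median log2 ratio of -1.47. Pcbp2, a poly(C)-binding protein, stood at 79.7, 255 and 334 against 500, 800 and 677 CPM. Ddx17, a DEAD-box helicase, stood at 10.8, 75.5 and 79.7 against 104, 211 and 158 CPM. Zfp36l2, which promotes decay of transcripts with AU-rich elements, stood at 28.8, 98.0 and 152 against 196, 299 and 300 CPM. All 3 were separated widely inside the lower set, where Nrp1 low replicate 1 fell 3-fold or more below its neighbour.

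Other RNA-binding members were close in slope. Luc7l2, a splicing factor associated with U1 snRNP, stood at 9.91, 31.0 and 43.6 against 44.1, 109 and 80.8 CPM, and its border libraries differed by 1.01-fold. Sfpq, a paraspeckle protein, had a log2 ratio of -1.51, Hnrnpa3 -1.42, Cnot6, a deadenylase of the CCR4-NOT complex, -1.44 and Ddx6, a helicase of mRNA storage and decay, -1.39. Of 50 splicing and RNA processing genes on a wider list, 24 lay on the lower side and 1 on the upper side. At TMM-scaled sizes these counts were 18 and 5. The background over all genes at or above 10 CPM was 22.9% on the lower and 11.2% on the upper side, and 18.6% and 20.6% at TMM-scaled sizes.

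**Figure D3:**
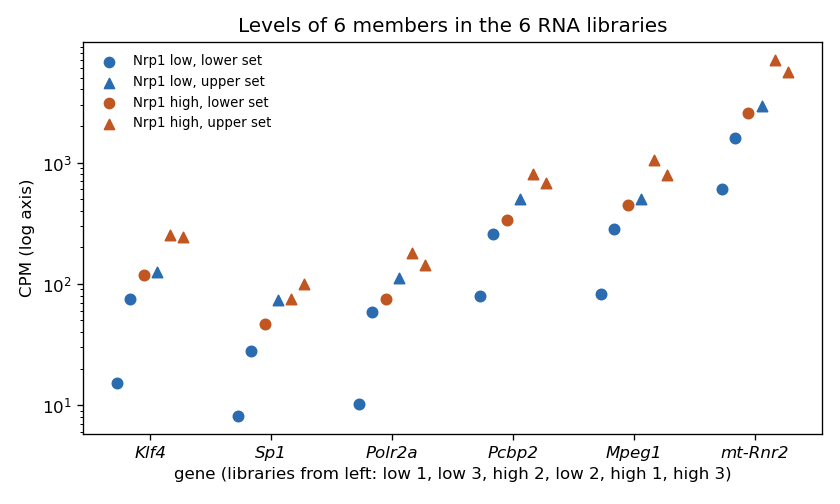
Points give CPM (vertical log axis) of 6 members in the 6 RNA libraries, ordered from left as low 1, low 3, high 2, low 2, high 1 and high 3, blue for Nrp1 low and orange for Nrp1 high, circles for the lower and triangles for the upper set. Nrp1 low replicate 1 lies well below the other libraries in each gene (15.3 CPM for Klf4, 10.1 for Polr2a). The circle and triangle at the border lie close together in Klf4, Mpeg1 and mt-Rnr2 and further apart in Sp1, Polr2a and Pcbp2.

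Signalling genes numbered 20, with a median log2 ratio of -1.50. Map3k12, a kinase of the JNK pathway, stood at 6.66, 56.1 and 75.2 against 82.4, 258 and 199 CPM. Its RefSeq span (chromosome 15, 102497647 to 102517004) overlaps that of Pcbp2 (102470450 to 102500068) by 2421 bases, so reads of this pair may not be told apart, and Sp1 lies 34046 bases from Pcbp2. Tesk1, a kinase acting on cofilin, stood at 1.31, 5.56 and 6.71 against 8.72, 31.4 and 14.2 CPM. Gnb2, a G protein beta subunit, stood at 37.9, 223 and 285 against 376, 757 and 532 CPM.

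The p38 and mTORC1 pathways, which the study names, held 1 member each. These are 5.56% and 3.70% of their genes at or above 10 CPM, beside 1.73% of all genes at that level. With 1 member each, nothing is read from these shares. Map3k5 (ASK1, a kinase upstream of p38 and JNK) stood at 4.41, 24.2 and 24.6 against 40.1, 50.3 and 61.5 CPM, and it is the only member among 18 p38 pathway genes at or above 10 CPM, of which 7 lay on the lower side and 1 on the upper. Fnip1, a folliculin partner in the nutrient branch of mTORC1 signalling, stood at 6.38, 14.0 and 24.7 against 45.4, 49.7 and 42.9 CPM. It is the only member among 27 mTORC1 pathway genes, of which 7 lay on the lower and 6 on the upper side (6 and 7 at TMM-scaled sizes). Pik3ca, the catalytic alpha subunit of PI3 kinase, had a log2 ratio of -1.46. Over all genes at or above 10 CPM, 22.9% lay on the lower side and 11.2% on the upper side.

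Membrane, trafficking and cytoskeletal genes numbered 24, with a median log2 ratio of -1.48. Mpeg1, the pore-forming protein perforin-2 of phagocytes, stood at 82.4, 286 and 447 against 500, 1054 and 787 CPM. Itga4, the integrin alpha 4 chain, stood at 42.1, 98.2 and 135 against 220 (219.5), 284 and 270 (270.1) CPM. Spn, the sialophorin CD43 of non-classical monocytes, stood at 20.7, 77.4 and 54.7 against 106, 164 and 144 CPM. Mpeg1 was highest in Nrp1 high replicate 1, and Spn was one of 25 members in which Nrp1 high replicate 2 lay below Nrp1 low replicate 3.

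Steeper and flatter courses occurred inside this group. Dnah14, an axonemal dynein heavy chain gene, had a log2 ratio of -1.88 (8.23, 37.6 and 72.3 against 86.6, 207 and 149 CPM). Picalm, a clathrin assembly protein, had -1.47. Trak1, an adaptor of mitochondrial transport on microtubules, departed from the gradient: it stood at 3.13 and 4.30 CPM in Nrp1 low replicates 1 and 3 and between 28.5 and 36.9 CPM in the other 4 libraries.

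Ubiquitin, DNA repair and cell death genes numbered 11 and metabolic enzymes 11. Cul3, the scaffold of a ubiquitin ligase family, stood at 12.7, 49.6 and 73.5 against 108, 113 and 137 CPM. Parp4, of the vault particle, stood at 0.569, 7.60 and 5.60 against 11.9, 24.3 and 18.8 CPM. Bard1, the partner of Brca1, had a log2 ratio of -1.43 and Xiap, an inhibitor of caspases, -1.40. Among the enzymes Lars2, the mitochondrial leucyl-tRNA synthetase, stood at 21.0, 169 and 206 against 275, 509 and 475 CPM, Ids, a lysosomal sulfatase, had -1.83, and Hsd17b11, a lipid droplet dehydrogenase, -1.73. The ratio of Ids had a wider step at the border, with 4.65 CPM in Nrp1 high replicate 2 and 15.6 CPM in Nrp1 low replicate 2.

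The threshold cut through a continuous range. The last members were Cul3, Gm29216 and Dennd4c, a regulator of Rab GTPases, with log2 ratios of -1.38 each, and the first 3 genes left out were Alcam, Kansl1 and Slc15a3, also at -1.38 each. At TMM-scaled sizes the rule picked 142 of the 150 again, and without Nrp1 low replicate 1 it picked 121.

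Members were long genes. The median span of the 122 nuclear protein-coding members in RefSeq was 42337 bases, introns included, against 22368 bases for the 8297 such genes at or above 10 CPM. Ordered by span, 16, 17, 32 and 57 members fell in the 4 equal classes from shortest to longest. Over all nuclear protein-coding genes at or above 10 CPM, the share with the lower set below the upper rose from 8.58% in the shortest class to 15.7, 25.3 and 41.9% in the longest, and the share with the lower set above the upper fell from 21.9 to 2.80%. At TMM-scaled sizes the lower-side share ran from 5.35 to 36.8%, and without Nrp1 low replicate 1 from 9.64 to 43.1%. Transcript length was not analysed here.

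Lists of other functions lay on either side. Of 19 giant ubiquitin ligases and deubiquitinases 15 lay on the lower side and 0 on the upper, and of 33 cytoskeleton, motor and DOCK genes 17 and 0. Of 88 nuclear-encoded respiratory chain genes 1 lay on the lower and 37 on the upper side, and the others on neither. Of 48 proteasome subunits 1 and 16, and of 78 mitochondrial ribosomal proteins 3 and 27, lay on these sides. Over all genes at or above 10 CPM the shares were 22.9% on the lower and 11.2% on the upper side, and 18.6% and 20.6% at TMM-scaled sizes, where the background turns to more genes on the upper side. None of these 5 lists turned at TMM-scaled sizes or without Nrp1 low replicate 1. The part of gene length in the members' pattern was not tested, and these lists were chosen with earlier results of these data known.

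**Figure D4:**
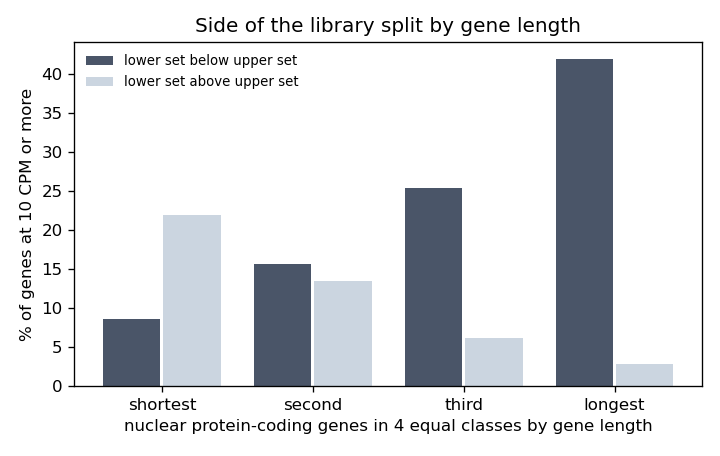
Bars give the share (vertical axis, in %) of nuclear protein-coding genes at or above 10 CPM whose lower-set libraries all lay below (dark) or all above (light) the upper-set libraries, for 4 equal classes of genes by RefSeq span (horizontal axis). The dark bars rise from 8.58 to 41.9% and the light bars fall from 21.9 to 2.80%.

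No chromosome held most of the nuclear members. Chromosomes 7 and 11 held 15 each of the 135 members with a RefSeq record, and chromosome MT held 7. Only 8 of the 17 mitochondrially encoded genes at or above 10 CPM were matched to a RefSeq record. Members were of moderate level, with a median of 30.5 CPM (quartiles 15.7 and 63.9), against 43.6 CPM over all genes at or above 10 CPM.

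The comparison that the study's design gives, Nrp1 high against Nrp1 low, was fitted with edgeR's quasi-likelihood test over 15541 genes, and all 150 members were tested. None was called at an adjusted p under 0.05 (0 of 150, with 20 higher at an unadjusted p under 0.05), and DESeq2 called 0 of 150 as well. Over all genes tested 0.00643% were called higher and 0.676% lower, and at an unadjusted p under 0.05 the shares were 4.5% higher and 6.72% lower. The adjusted p of members ran from 0.376 to 0.968. Because the upper set holds 2 of 3 Nrp1 high libraries and 1 of 3 Nrp1 low libraries, the rule tilts every member towards higher values in Nrp1 high and at the same time makes the fractions overlap, since Nrp1 low replicate 2 lies above Nrp1 high replicate 2 in all 150. The log2 difference lay above 0 in 149 members, with a median of 1.06, against 50.6% and 0.01 over all genes, and nothing is read from this.

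Single members show the size of the spread. The mean level of Klf4 over the Nrp1 high libraries was 204 ± 74.6 CPM (SD, n = 3), and over the Nrp1 low libraries it was 72.2 ± 55.3 CPM (log2 difference 1.35 ± 0.62 SE, edgeR adjusted p = 0.445, between 0.193 and 0.821 over the alternatives run). For mt-Rnr2 the means were 5034 ± 2264 CPM (high) and 1707 ± 1169 CPM (low) (1.40 ± 0.54 SE, edgeR adjusted p = 0.428). The lowest p among members was that of Kdm1b, at 81.0 ± 38.3 and 26.5 ± 17.9 CPM (1.46 ± 0.49 SE, edgeR adjusted p = 0.376), followed by 1700037C18Rik (adjusted p = 0.400) and Bard1 (adjusted p = 0.407). Polr2a and Sp1 had log2 differences of 1.00 ± 0.68 and 0.87 ± 0.63 (SE). The median standard error of members was 0.60, against 0.38 over all genes.

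Leaving out a library moved these values. Without Nrp1 low replicate 1 the median log2 difference of members fell to 0.62, and without Nrp1 low replicate 2 it was 1.65. In that last fit the Nrp1 low fraction holds only the libraries that the rule placed in the lower set, so its p-values for members rest on values the rule used and support nothing. Of 16396 genes 81 were called there, 1 of them higher in Nrp1 high, and that 1 is the member Trak1 (log2 2.85 ± 0.31 SE, edgeR adjusted p = 0.0195). In the same fit 97 of 150 members had an unadjusted p under 0.05. The subjects Nrp1 and Sema4a are not members: Nrp1 stood at 18.0, 37.0 and 93.4 CPM in the lower set and at 59.2, 105 and 121 CPM in the upper set, ordered by fraction, and Sema4a at 320.1, 265 and 316 against 273, 236 and 250.4 CPM.

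Open chromatin gave a measure from libraries that the rule did not use. In the authors' deposited table of Nrp1 high against Nrp1 low, 341 regions were annotated to 120 members, and 33 of them (30 members) had an FDR under 0.05, 11 higher and 22 lower in Nrp1 high. That is 3.23% higher and 6.45% lower, beside 2.56% and 4.99% of all 40796 regions in the authors' deposited table. Of 179 promoter regions (within 3000 bases of a start) of 114 members, 6 were higher and 9 lower, beside 1.78% and 4.07% of all 19352 promoter regions in the authors' deposited table. The members' promoter shares are thus 3.35% higher and 5.03% lower. Set against regions of genes at or above 10 CPM in the authors' deposited table, 9.68% of members' regions were called, beside 6.27%, and 8.38% of their promoter regions, beside 4.91%. The members' shares were above this background in both directions, on 33 and 15 called regions, and the difference was not tested.

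Members' promoter regions lay on both sides of 0, with more of them at low p than in the background. In the authors' deposited table, 73 of the 179 promoter regions of members had a fold above 0 (40.8%, against 40.6% of all promoter regions). Their median log2 fold was -0.06, as over all promoter regions of the authors' deposited table (-0.06). Promoter regions of genes at or above 10 CPM had a median of -0.03 in the authors' deposited table, with 44.6% above 0. At an unadjusted p under 0.05 stood 27.4% of members' promoter regions, against 20.7% of all and 18.6% of those of genes at or above 10 CPM in the authors' deposited table. The fold of that table is taken as high against low from the name of the comparison, since no column states it. Whether the 2 assays differ for these genes was not tested.

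Regions past the threshold lay on both sides. In the authors' deposited table the lowest FDR of a member was 0.000743, at chr2:73526679-73527078 in the promoter flank of Wipf1, an actin regulator (log2 fold -1.11). Among promoter regions the most negative folds were those of Pou2f2 (-1.16, FDR 0.0120), Ids (-1.14, FDR 0.0354) and Wipf1 in the authors' deposited table. The most positive were those of Fnip1 (0.77, FDR 0.0260), Glcci1 (0.49, FDR 0.294) and Dot1l (0.48, FDR 0.245) in the same deposited table of the authors. Of the regions over the printed windows, Klf4 (chr4:55532397-55532796) had a log2 fold of -0.19 (FDR 0.547), Sp1 (chr15:102405873-102406272) 0.25 (FDR 0.0460) and Polr2a (chr11:69758677-69759076) 0.29 (FDR 0.0792) in the authors' deposited table. A region over Cic within 1000 bases of a start had 0.38 (FDR 0.00171) in the authors' deposited table, named after its value was seen.

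**Figure D5:**
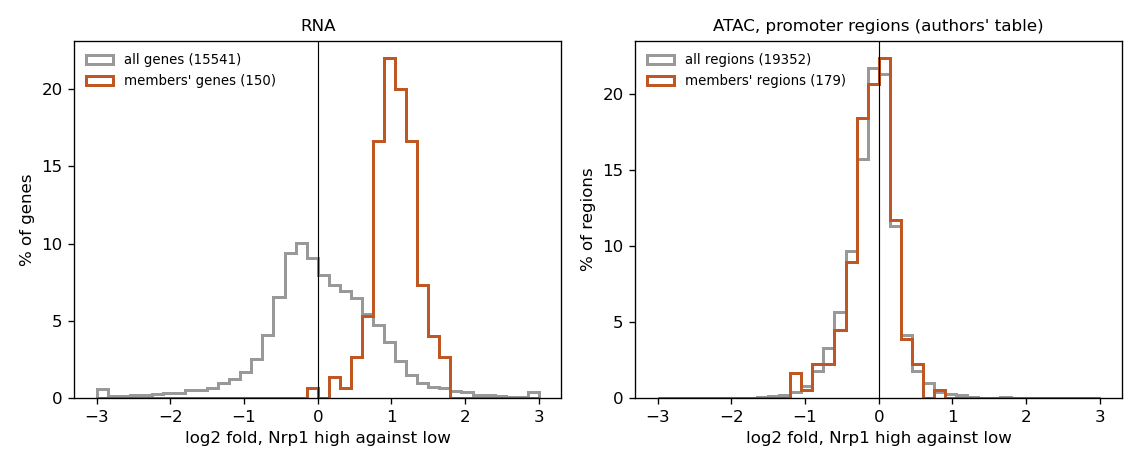
Histograms give the share of genes or regions (vertical axes, in %) by log2 fold of Nrp1 high against low (horizontal axes, values beyond 3 drawn in the outermost bin), for RNA from the edgeR fit and for ATAC promoter regions from the authors' deposited table. In RNA 149 of the 150 members lie right of 0 with a median of 1.06, where the rule tilts them, and in ATAC the outline of their 179 promoter regions lies close to that of all regions.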

How the data were processed

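RNA-seq (6 libraries) and ATAC-seq (10 libraries) were measured. The deposited RNA table holds unscaled whole numbers per gene, treated as the authors' estimated counts since its identifiers have the layout that StringTie's count script writes; rounding changed nothing. Its columns read neg and pos, taken as the low and high fractions. The submitters' processing notes name GRCm38 and, without roles, HISAT2, StringTie, BWA, MACS2, DiffBind, ChIPseeker, DESeq2 and edgeR. For each region the deposited ATAC table holds the authors' log2 fold with its p-value and FDR but no depth, so its precision is unknown. Counting error is larger for members in the lower set, where the median count in Nrp1 low replicate 1 was 184 (183.5).

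Groups and replicate numbers came from sample titles. Members were found with CPM by column totals (Python 3.11.15, pandas 2.3.3). The fit used edgeR 4.0.16 in R 4.3.3 (filterByExpr, TMM, robust quasi-likelihood, group as the term, Benjamini-Hochberg), tested on simulated data. Alternatives were RLE factors, library totals, no filter, DESeq2 1.42.0, the replicate block, leaving out each library, other pseudocounts and level minimums, and for ATAC an FDR of 0.01 and 1000 bases.

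The members and all 54 lists were chosen with earlier results of these data known. Named by rule were the 12 most negative members with a gene symbol that is not a predicted model, the 3 of highest level overall and in each list holding at least 2 members, the 3 on each side of rank 150, the 3 of lowest p, the extreme promoter regions, and Nrp1, Klf4 and Sema4a. Other members were named after their values were seen.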

Additional observations from a re-analysis of the deposited data

How the results depend on the processing

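The medians over members kept their sign in the alternatives run, while single members did not all do so and the sizes moved with single libraries. The Nrp1 log2 difference lay above 0 in 149 members, in 145 without Nrp1 low replicate 1, in 147 without Nrp1 high replicate 1 and in 150 with the replicate block. At TMM-scaled sizes 144 of 150 still had the lower set below the upper. The rule picked between 81 and 121 of the 150 members again when 1 library was left out (81 without Nrp1 high replicate 2), and 99 with a mean of at least 20 CPM. It picked 145 and 111 with pseudocounts of 0.5 and 5 CPM and 119 with a mean of at least 5 CPM. The median log2 ratio of the sets ran from -1.90 to -1.11 over the fits without a library and was -1.30 with a pseudocount of 5 CPM. In the Nrp1 comparison the number of genes called over all genes was 106 in the edgeR fit (1 higher), 393 with DESeq2 (81 higher), 0 with the replicate block (943 at an unadjusted p under 0.05) and between 0 and 125 without a library (0 without Nrp1 high replicate 3, with 909 at an unadjusted p under 0.05). The number of members called was 0 in the edgeR fit and with the replicate block, and between 0 and 1 without a library. The median log2 difference of members ran from 0.62 to 1.65 over the fits without a library. With library totals the median log2 difference was 1.22 over members and 0.20 over all tested genes, against 1.06 and 0.01 in the edgeR fit with TMM. Member regions in the authors' deposited ATAC table fell from 33 at an FDR under 0.05 to 11 under 0.01, as fewer regions pass the stricter threshold. An FDR threshold does not enter the median fold and was not run for it. Same-numbered libraries did not deviate together (correlations -0.24, -0.24 and 0.02). With 3 libraries in each group, these values cannot decide whether same-numbered libraries shared a source. The replicate block pairs them by number. The cause of the other shifts was not tested.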
